A study of Danio rerio with 10 samples.

Results

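The 46 genes described here encode the light-detecting machinery of rods and cones and 3 proteins of the visual cycle of zebrafish (*Danio rerio*). They are the opsins (7 genes), the subunits of transducin (8) and of phosphodiesterase 6 (5), and the opsin kinases, arrestins and recoverins (11). Others are genes of cGMP synthesis and of the cGMP-gated channel (7), of the disc protein peripherin (2) and of photoreceptor transcription factors (3). The last are visual cycle and retinoid carrier genes (3). A gene was included if its symbol was on a fixed list of 46 symbols and its mean over the 10 samples reached 10 normalized counts. All 46 symbols were found, each with 1 identifier, among the 32520 genes of the table, and all 46 passed the filter for testing (3 or more samples with 10 normalized counts or more), which 21563 genes passed in all. Genome positions are left out because the annotation tables used here follow a later assembly than GRCz11, which the files use.

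RNA came from pools of whole larvae of the AB strain at 5 dpf (days post fertilization), in 3 groups. Larvae of the control group (replicates 1, 2 and 4) were kept in 0.1% DMSO, the solvent that all groups received. The other groups were kept from the first hours after fertilization in a mixture of persistent organic pollutants at 75 times (POP75x, replicates 2, 3 and 4) or 125 times (POP125x, replicates 1, 2, 3 and 4) the mean level in human blood. The labels give pools of 75 larvae, the methods another number, and nothing ties a replicate number to one experiment, so p-values measure the spread between these pools.

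In the outer segment of a photoreceptor, a photon activates an opsin. The opsin activates transducin, and transducin releases the catalytic subunits of phosphodiesterase 6 from their inhibitory subunits. The enzyme then breaks down cGMP and the cGMP-gated channels close. Opsin kinases and arrestins end the response, and recoverins hold back the opsin kinases. Guanylate cyclases and their calcium-sensing activators restore cGMP, and the visual cycle returns the chromophore to its light-sensitive form. Zebrafish have rods and 4 classes of cones (ultraviolet, blue, green and red), and most of the steps use separate rod and cone genes.

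The pools differed in ways that the groups do not explain. Clustering of the pools on all tested genes other than the 46 was cut into 3 sets, a fixed number. No label names these sets. Set 1 holds control replicate 1, POP75x replicate 4 and POP125x replicates 3 and 4. Set 2 holds control replicates 2 and 4 and POP75x replicate 3, and set 3 holds POP75x replicate 2 and POP125x replicates 1 and 2, so set 3 has no control and set 2 no POP125x pool. Many genes of the circadian clock and the melatonin synthesis gene *aanat2* set the 3 pools of set 3 apart. The clock repressor gene *nr1d1* had 247 to 358 normalized counts in set 3 and 1710.1 to 3267 in the other 7 pools, and *aanat2*, which encodes an enzyme of the pineal organ and retina, was higher in all 3 of them, reaching 136 there and at most 18.7 elsewhere. Of 38 tested clock genes, 18 were lowest in the 3 pools of set 3 (9.89% of all genes tested) and 11 highest (10.6%). The clock genes were among the genes that defined the sets, so these counts are a description only. Between groups limma called 0 of the clock genes. The summed level of the clock list was 55461 to 59061 normalized counts in control, 43359 to 62552 in POP75x and 41139.8 to 62525 in POP125x pools. The part of these differences between sets in the results for photoreceptor genes was not tested, but values within set 1 and without sets 2 or 3 are given beside several of them. In RNA of whole larvae, fewer photoreceptors and less RNA per photoreceptor cannot be told apart.

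Between POP125x and control, 40 of the 46 genes (87.0%) had a log2 fold change below 0, against 50.7% of all genes tested. Their median log2 fold change was −0.52 (all genes tested −0.0082), with −0.65 for the 12 rod genes, −0.51 for the 19 cone genes and 0.18 for the 3 visual cycle genes. The values of these 3 ranged from −0.44 to 0.39, and those above 0 lay below 0 without set 3, as given below. In 14 of the 46 (30.4%), all 4 POP125x pools lay below all 3 control pools, which held for 11.6% of all genes tested, and in 0 of them all POP125x pools lay above (12.4% of all genes). These 14 genes were *opn1mw1*, *gnat2*, *gnb1b*, *gnb3a*, *gnb3b*, *grk1a*, *grk1b*, *grk7a*, *arr3a*, *saga*, *rcvrna*, *rcvrn2*, *gucy2f* and *nr2e3*. None of the 46 passed an adjusted p of 0.05 in limma with Benjamini-Hochberg adjustment over all genes, where 1.7% of the genes tested (366) passed, 1.35% (291) with a higher and 0.348% (75) with a lower level in POP125x.

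By the unadjusted p of the same fit, 16 genes were under 0.05 with a lower level (9.5% of all genes tested) and 0 with a higher one (11.5%). edgeR called 0 of the 46, while it called 1.32% of all genes tested (0.301% lower). DESeq2 called 6, against 7.46% of all genes (2.82% lower), and all 6 were lower: *gnb1b* (adjusted p = 0.0215), *grk1a* (0.00845), *grk1b* (0.0463), *saga* (0.026), *rcvrn2* (0.0236) and *nr2e3* (0.0261). The count in limma was also not 0 without control replicate 1 (1, *grk1a*), without POP75x replicate 2 (1, *nr2e3*), without POP75x replicate 3 (4, namely *grk1a*, *grk1b*, *nr2e3* and *rcvrn2*) and with only control and POP125x pools in the fit (5, namely *gnat2*, *grk1a*, *nr2e3*, *rcvrn2* and *saga*). All of these were lower. The shares of all genes tested that passed with a lower level in these fits, in the same order, were 0.464, 0.923, 2.7 and 2.46%, and in either direction 2.19, 3.18, 7.66 and 7.11%. The number below 0 was 44 without the 3 pools of set 3 (median −0.47, 0 called) and 34 without the 3 pools of set 2 (median −0.20, 0 called), a choice that leaves 1 control pool. With the set as a term, 34 lay below 0, the median was −0.17 and 4 passed, all lower (*pde6b*, *grk7a*, *saga* and *cnga3a*). In that fit 12.6% of all genes tested passed, 4.54% with a lower level. The sets were derived from these same expression values, so the p-values of that fit are not valid as tests. Within set 1 alone, 37 of the 46 lay below 0 in the 2 POP125x pools relative to the 1 control pool, with a median of −0.21, while over all genes tested the share was 50.7% and the median −0.0078. In the POP75x pool of set 1, 36 of the 46 lay below 0 relative to the same control pool, with a median of −0.11. Both counts thus rest on 1 control pool.

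**Figure D1:**
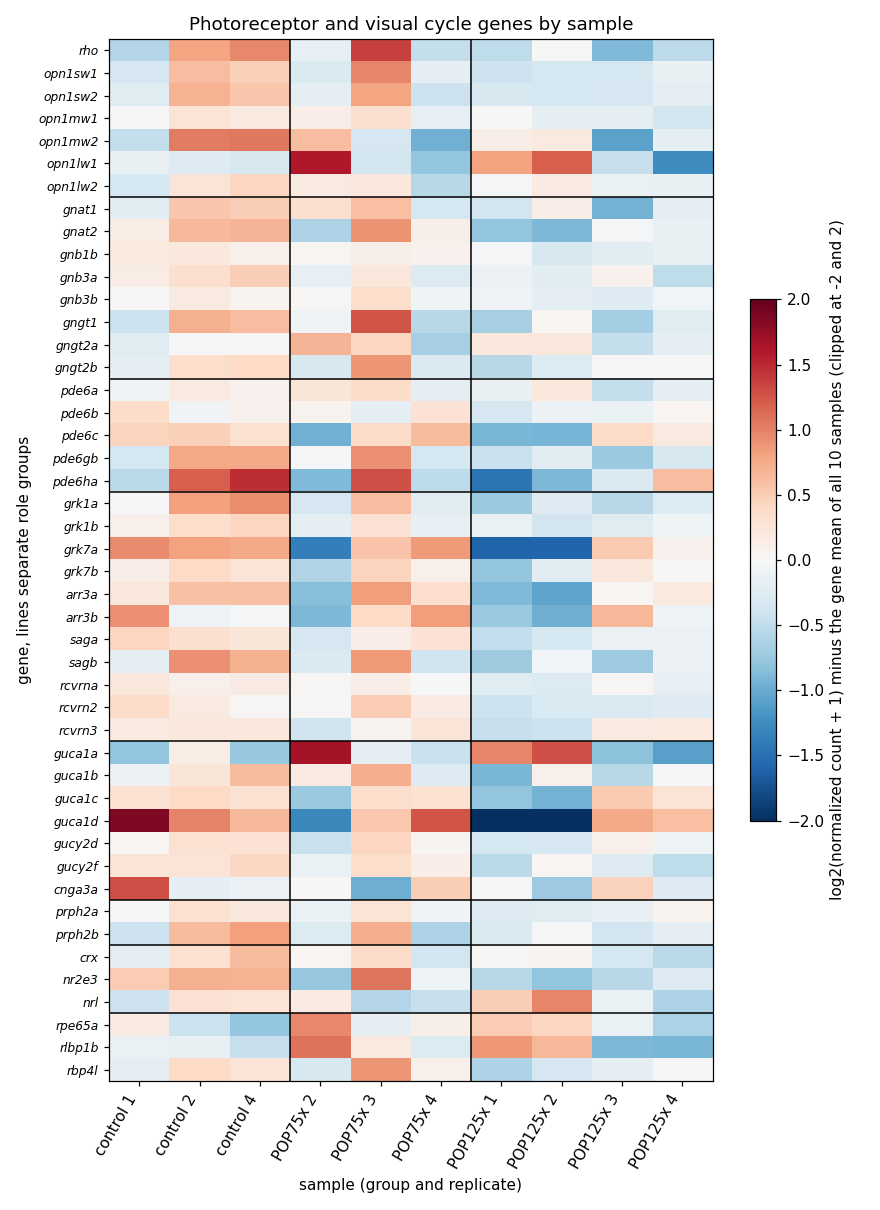
Level of each of the 46 genes (rows, in the order of their roles) in each of the 10 pools (columns), as log2(normalized count + 1) minus the gene's mean over all pools. Most rows are red in control replicates 2 and 4 and POP75x replicate 3 (set 2). Most are blue in the 4 POP125x pools and in POP75x replicates 2 and 4. The median over the 46 was −0.1455 and −0.1653 in POP75x replicates 2 and 4 and −0.3984 to −0.1564 in POP125x pools. Between POP125x and control, 40 of 46 had a log2 fold change below 0.

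Summed over the 46 genes, the share of all normalized counts of a pool was 0.781, 0.987 and 0.975% in control replicates 1, 2 and 4. It was 0.653, 0.999 and 0.765% in POP75x replicates 2, 3 and 4 and 0.573, 0.606, 0.65 and 0.681% in POP125x replicates 1 to 4. All POP125x pools were below all controls, while the POP75x pools spanned the controls. As summed normalized counts the nearest pools lay closer, with 115578 in control replicate 1 and 111910 in POP125x replicate 4. Rod genes took 0.168 to 0.308% in control, 0.166 to 0.337% in POP75x and 0.12 to 0.189% in POP125x pools, so these groups overlapped. Cone genes took 0.46 to 0.546% in control, 0.346 to 0.53% in POP75x and 0.305 to 0.403% in POP125x pools, and the POP125x pools did not overlap the controls. As summed normalized counts the cone genes were separated by little, with 68071 in control replicate 1 and 66334 in POP125x replicate 4.

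Fold changes below are of log2(normalized count + 1) with the standard error (SE) of limma, and adjusted p-values are of the same limma fit. Genes named with full values are the 7 opsins and, for each of the other 7 roles, the gene with the lowest unadjusted p between POP125x and control. All others that are named were chosen after their values were seen. Normalized counts are not divided by gene length and are compared between pools only. The counts given for each role between POP125x and control stand against shares of all genes tested. A log2 fold change below 0 was found in 50.7%, and all POP125x pools lay below all controls in 11.6%. An unadjusted p under 0.05 in limma with a lower level was found in 9.5%, and DESeq2 called 2.82% lower.

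Opsins set the wavelength to which each photoreceptor responds. Of the 7 opsin genes, 6 had a log2 fold change below 0 between POP125x and control, with a median of −0.57, and 1 (*opn1mw1*) had no overlap between the groups. Of all genes tested, 11.6% had all POP125x pools below all controls. None of the opsin genes passed in limma, edgeR or DESeq2, and 1 (*opn1sw2*) had an unadjusted p under 0.05 in limma (9.5% of all genes tested with a lower level). Several of these genes had their highest values in set 2, and the controls of set 2 and of set 1 lay far apart.

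The rod opsin *rho* (ENSDARG00000002193) had 15642, 40347 and 45721 normalized counts in control replicates 1, 2 and 4, and 20802, 60047 and 16879 in POP75x replicates 2, 3 and 4. In POP125x replicates 1 to 4 it had 16414, 23541, 12707 and 16211. The pools of set 2 were the 3 highest, and control replicate 1 lay within the range of POP125x. The means were 33904 ± 16041 (SD, n = 3) in control and 17218 ± 4546 (SD, n = 4) in POP125x pools, a log2 fold change of −0.87 (SE 0.47, adjusted p = 0.309). It was −1.10 without set 3 and 0.10 without set 2.

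The ultraviolet cone opsin *opn1sw1* (ENSDARG00000045677) also had its 3 highest pools in set 2, with 15819, 30371 and 27745 normalized counts in control, 16242, 39243 and 17609 in POP75x and 14889, 15589, 15514 and 17982 in POP125x replicates, each in the order of their numbers. Between POP125x and control the log2 fold change was −0.57 (SE 0.33, adjusted p = 0.329), and 0.012 without set 2. The blue cone opsin *opn1sw2* (ENSDARG00000017274) had 2957, 5639 and 5142 in control, 3072, 6006 and 2596 in POP75x and 2784, 2741, 2769.6 and 3034 in POP125x pools. Its POP125x pools lay close together and its control pools did not, with a log2 fold change of −0.64 (SE 0.29, adjusted p = 0.237), and −0.064 without set 2. Control replicate 1 lay inside the range of the POP125x pools for both genes.

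The green cone opsins are 4 tandem copies in zebrafish, and reads of near-identical copies may be split between them in counting. *opn1mw1* (ENSDARG00000097008) had 5061, 6038 and 5716 normalized counts in control, 5474, 6219 and 4463 in POP75x and 4992, 4350.4, 4442 and 3867 in POP125x pools. All POP125x pools were below all control pools, the nearest by little, with a log2 fold change of −0.35 (SE 0.16, adjusted p = 0.256). *opn1mw2* (ENSDARG00000044280) had 117, 336 and 342 in control, 250.0, 129 and 83.0 in POP75x and 179.7, 187, 77.6 and 142 in POP125x pools, a log2 fold change of −0.77 (SE 0.46, adjusted p = 0.349), and 0.24 without set 2. Here the control pools of set 2 were the highest while POP75x replicate 3, of the same set, was among the lower pools. The other copies of this cluster, which are not among the 46, had at most 3.65 (*opn1mw3*) and 0 (*opn1mw4*) normalized counts in any pool.

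The red cone opsins are a tandem pair, next to *opn1sw2* in the reference at hand. *opn1lw2* (ENSDARG00000044861) had 6024, 9189.8 and 10433 normalized counts in control, 8737, 8919 and 5268 in POP75x and 7496, 8639, 7006 and 6965 in POP125x pools. The groups overlapped, and its log2 fold change was −0.15 (SE 0.24, adjusted p = 0.728), or 0.32 without set 2. *opn1lw1* (ENSDARG00000044862) was counted far less, with 20.04, 18.6 and 17.7 in control, 70.0, 17.0 and 12.7 in POP75x and 39.9, 52.3, 15.9 and 8.73 in POP125x pools. Its 3 highest pools were the 3 of set 3, while the controls lay close together. The log2 fold change was 0.31 (SE 0.65, adjusted p = 0.796), and it was −0.62 without set 3.

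**Figure D2:**
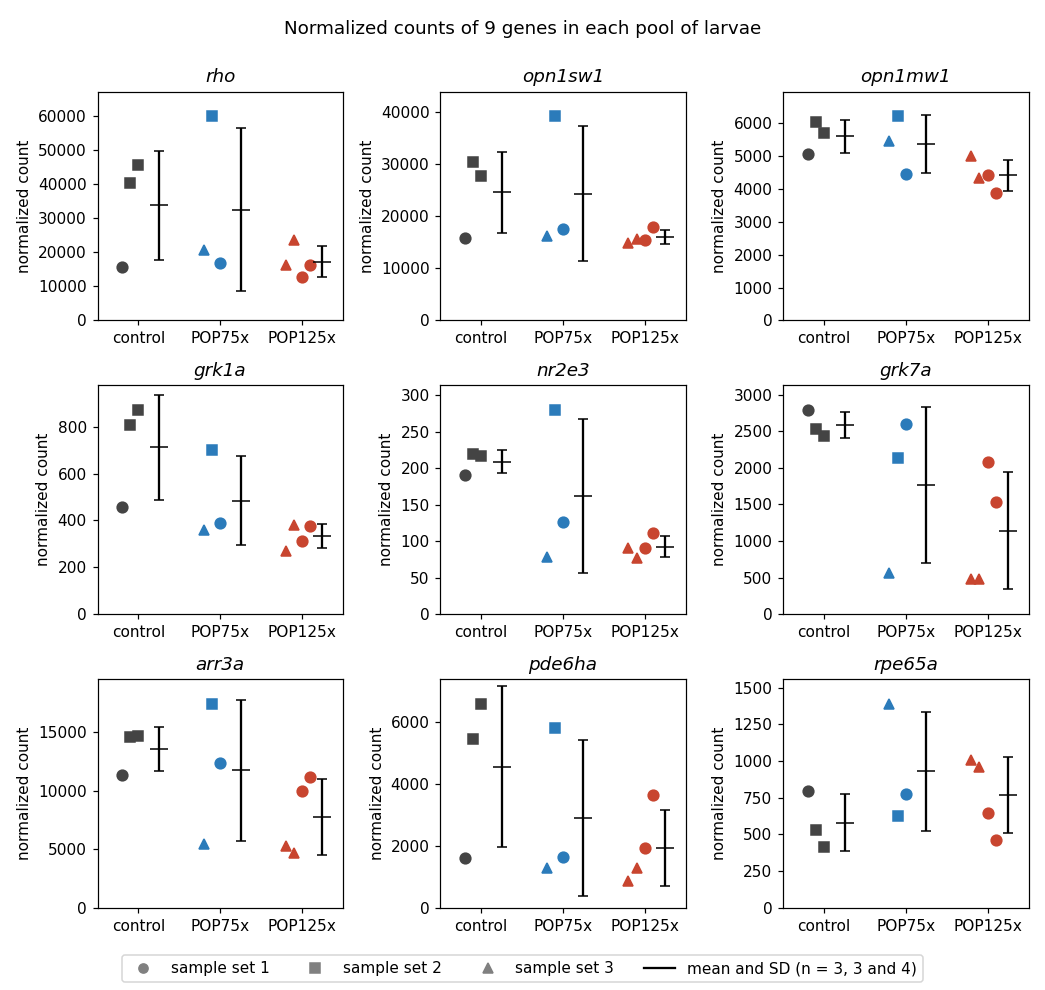
Normalized counts of 9 genes in each pool (points, with shape giving the sample set) by group, with the mean and SD to the right (n = 3, 3 and 4). For *rho* and *opn1sw1* the squares of set 2 are far above all other pools, whereas for *nr2e3* all 4 POP125x pools (76.6 to 112) lie below all 3 controls (191 to 220.0).

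Transducin couples the activated opsin to phosphodiesterase 6. Of its 8 subunit genes, 7 lay below 0 between POP125x and control (median −0.45). In 4 of them (*gnat2*, *gnb1b*, *gnb3a* and *gnb3b*) the POP125x pools lay below all controls, against 11.6% of all genes tested. By adjusted p, none passed in limma or edgeR and DESeq2 called 1 (*gnb1b*, against 2.82% of all genes called lower). In limma 3 had an unadjusted p under 0.05 (9.5% of all genes tested with a lower level).

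The gene with the lowest p of this role was *gnb3a* (ENSDARG00000004358), a cone beta subunit, with 1002, 1136 and 1274 normalized counts in control, 812, 1058 and 751 in POP75x and 834, 778, 960.3 and 635 in POP125x pools. The highest POP125x pool (POP125x replicate 3) lay just below the lowest control. The means were 1137 ± 136 (SD, n = 3) in control and 802 ± 135 (SD, n = 4) in POP125x pools, a log2 fold change of −0.51 (SE 0.18, adjusted p = 0.152). The cone alpha subunit *gnat2* had 6172, 8673 and 8933 in control, 3618, 10411 and 6000.1 in POP75x and 3202, 2966, 5469 and 5021 in POP125x pools. Its 3 lowest pools were those of set 3 and its 3 highest those of set 2, and in set 1 the order was control, POP75x, then both POP125x pools. Its log2 fold change was −0.96 (SE 0.34, adjusted p = 0.157). The rod alpha subunit *gnat1* had 607, 1048 and 1008 in control and 548, 783, 369 and 624 in POP125x pools, which overlapped (log2 fold change −0.62, SE 0.30, adjusted p = 0.262).

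The beta and gamma subunits varied by different amounts. The beta subunit *gnb1b*, counted here as a rod gene, differed by at most 1.44-fold between any pools. It had 3794 ± 162 (SD, n = 3) in control, 3571 ± 93.3 (SD, n = 3) in POP75x and 2980.2 ± 239.5 (SD, n = 4) in POP125x pools. In RNA of whole larvae, its counts cannot be assigned to rods alone. All POP125x pools of *gnb1b* were below all control and all POP75x pools, with log2 fold changes of −0.35 (SE 0.13, adjusted p = 0.169) and −0.26 (adjusted p = 0.885). The rod gamma subunit *gngt1* differed by up to 3.83-fold between pools, with its highest value in POP75x replicate 3 (1451.4), and its groups overlapped. The cone beta subunit *gnb3b* had no overlap between POP125x and control at a small log2 fold change of −0.23 (SE 0.15, adjusted p = 0.393). Of the cone gamma subunits, *gngt2b* had a log2 fold change of −0.39 (SE 0.29, adjusted p = 0.441) and *gngt2a* of 0.024 (SE 0.30, adjusted p = 0.969), the value nearest to 0 of all 46.

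Phosphodiesterase 6 breaks down cGMP. All 5 of its subunit genes lay below 0 between POP125x and control (median −0.73), and in 0 of them the groups were separate. None passed in limma, edgeR or DESeq2, and 1 had an unadjusted p under 0.05 in limma. That gene was *pde6gb* (ENSDARG00000101984), the inhibitory gamma subunit of rods, with 607, 1311 and 1303 normalized counts in control, 759, 1455 and 607 in POP75x and 568, 664, 458 and 615 in POP125x pools. Control replicate 1 lay among the POP125x pools and the other 2 controls near POP75x replicate 3. The fit gave a log2 fold change of −0.82 (SE 0.33, adjusted p = 0.19). The inhibitory subunit of cones, *pde6ha*, had 1623, 5449.6 and 6607 in control, 1282, 5815 and 1648 in POP75x and 863, 1272, 1928 and 3641 in POP125x pools and differed by up to 7.66-fold between pools. Its log2 fold change of −1.22 (SE 0.64, adjusted p = 0.292) became 0.038 without set 2.

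The groups also overlapped for the catalytic subunits. The rod subunits *pde6a* and *pde6b* had log2 fold changes of −0.21 (SE 0.20, adjusted p = 0.548) and −0.27 (SE 0.17, adjusted p = 0.37). The cone subunit *pde6c* had 4074, 4147 and 3692 in control, 1522, 3865 and 4638 in POP75x and 1580.3, 1556, 3887 and 3379.5 in POP125x pools. Its 3 pools of set 3 (1522 to 1580.3) were separate from the other 7 (3380 to 4638), in which both POP125x pools lay among or near the controls. The log2 fold change of *pde6c* was −0.73 (SE 0.41, adjusted p = 0.321), and −0.13 without set 3.

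Opsin kinases and arrestins end the light response, and recoverins regulate the opsin kinases. All 11 genes of opsin kinases, arrestins and recoverins lay below 0 between POP125x and control (median −0.55). In 7 the groups did not overlap (all lower in 11.6% of all genes tested), and 8 had an unadjusted p under 0.05 in limma (9.5% with a lower level). limma and edgeR called 0 and DESeq2 called 4 of them, against 2.82% of all genes called lower.

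The rod opsin kinase *grk1a* (ENSDARG00000058803) had the lowest p of all 46 genes. It had 457, 807 and 872 normalized counts in control replicates 1, 2 and 4, 360.0, 702 and 391 in POP75x replicates 2, 3 and 4 and 271, 379, 310.4 and 375 in POP125x replicates 1 to 4. All POP125x pools were below all controls, and in set 1 the 2 POP125x pools (310.4 and 375) were below the control (457) with POP75x replicate 4 (391) between them. The means were 712 ± 223 (SD, n = 3) in control and 334 ± 52.6 (SD, n = 4) in POP125x pools, a log2 fold change of −1.05 (SE 0.28, adjusted p = 0.0838). It changed little without set 3 and was −0.46 without set 2. Its paralog *grk1b*, a cone kinase in zebrafish, had 533, 632 and 664 in control and 449, 383, 417 and 464 in POP125x pools, also without overlap, with a log2 fold change of −0.51 (SE 0.16, adjusted p = 0.123).

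The cone kinase *grk7a* had 2793, 2527 and 2441 normalized counts in control, 561, 2138 and 2597 in POP75x and 475, 480.4, 2078 and 1534 in POP125x pools. Its 3 pools of set 3 lay at 475 to 561 and the other 7 at 1534 to 2793, and its log2 fold change was −1.48 (SE 0.60, adjusted p = 0.194). The POP125x pools of set 1 (2078 and 1534) were nevertheless below the control of the set (2793). Without set 3 the log2 fold change was −0.53. Its paralog *grk7b* was also lowest in set 3 (34.7 to 51.1, against 60.2 to 82.1 elsewhere).

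Among the arrestins, which cap the phosphorylated opsin, the rod gene *saga* had 1124, 1045 and 989 normalized counts in control, 661, 911 and 1022 in POP75x and 594, 652, 766 and 774 in POP125x pools, all 4 of them below every control. Its log2 fold change was −0.60 (SE 0.17, adjusted p = 0.0992), close to that within set 1 (−0.55). The other rod arrestin, *sagb*, had 1243, 2679 and 2337 in control and 870.0, 1374, 857 and 1311 in POP125x pools, which overlapped through control replicate 1 (log2 fold change −0.88, SE 0.35, adjusted p = 0.186). The cone arrestin *arr3a* had 11367, 14567 and 14653 in control, 5408, 17435 and 12375 in POP75x and 5259.9, 4702, 9985 and 11129 in POP125x pools. Set 3 held its 3 lowest values and set 2 its 3 highest, and its POP125x pools in set 1 (9985 and 11129) lay below the control of the set (11367). Its log2 fold change was −0.89 (SE 0.41, adjusted p = 0.238). The cone arrestin *arr3b* had its highest values in control replicate 1 (3603) and POP75x replicate 4 (3423), both of set 1, and its groups overlapped.

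Recoverins are calcium sensors that hold back the opsin kinases. *rcvrn2* had 2673, 2314 and 2067 normalized counts in control, 2082, 2922 and 2300.2 in POP75x and 1509.9, 1661, 1653 and 1714 in POP125x pools. The POP125x pools lay below every control and every POP75x pool and close together. The log2 fold change was −0.52 (SE 0.16, adjusted p = 0.11) against control and −0.56 against POP75x (adjusted p = 0.885), the latter with the only unadjusted p under 0.05 of the 46 genes between the doses. *rcvrna* also had no overlap with control (log2 fold change −0.33, SE 0.13, adjusted p = 0.191), whereas *rcvrn3* was lowest in the 3 pools of set 3 (5668 to 5903) with the other 7 at 8124 to 9298.

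Guanylate cyclases and their activating proteins restore cGMP. Of the 7 genes of cGMP synthesis and the channel, 6 lay below 0 between POP125x and control (median −0.56). The groups did not overlap for 1 (all lower in 11.6% of all genes tested), and 2 had an unadjusted p under 0.05 in limma (9.5% with a lower level). None passed in limma, edgeR or DESeq2. The gene with the lowest p was the cyclase *gucy2f* (ENSDARG00000025504), with 115, 115 and 129 normalized counts in control, 87.7, 123 and 105 in POP75x and 66.2, 98.5, 80.4 and 67.2 in POP125x pools. Its POP125x pools were all below the controls, and its log2 fold change was −0.63 (SE 0.20, adjusted p = 0.12), with −0.64 within set 1. The means were 119.9 ± 7.83 (SD, n = 3) in control and 78.1 ± 15.1 (SD, n = 4) in POP125x pools. The other cyclase, *gucy2d*, overlapped between the groups (log2 fold change −0.38, SE 0.20, adjusted p = 0.302).

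Set 3 stood at opposite ends for different cyclase activators. *guca1d* had 49.6, 26.4 and 20.7 normalized counts in control, 4.66, 19.2 and 32.2 in POP75x and 1.05, 1.22, 22.4 and 20.1 in POP125x pools, the values near 1 being 1 read each. *guca1a* had 6.68, 13.7 and 6.89 in control, 41.0, 10.7 and 8.79 in POP75x and 25.2, 31.6, 6.55 and 5.24 in POP125x pools. The 3 pools of set 3 were thus the lowest for *guca1d* and the highest for *guca1a*, and neither gene had more than 49.6 normalized counts in any pool. *guca1c* was also lowest in set 3 (139 to 159, against 324 to 383 elsewhere), while *guca1b* overlapped between the groups (log2 fold change −0.60, SE 0.33, adjusted p = 0.316). The cone channel subunit *cnga3a* had 407, 147 and 153 in control and 166, 99.7, 229 and 138 in POP125x pools, and control replicate 1 alone was higher than all other pools. Without control replicate 1 its log2 fold change of −0.46 (SE 0.43, adjusted p = 0.538) was 0.016.

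Peripherin shapes the rims of outer segment discs. Both genes lay below 0 between POP125x and control, with overlap. *prph2a* (ENSDARG00000038018) had 1661, 2046 and 1933 normalized counts in control, 1515, 2003 and 1574 in POP75x and 1388, 1404, 1479 and 1736 in POP125x pools, a log2 fold change of −0.32 (SE 0.15, adjusted p = 0.255). *prph2b* spread over a wider range, with 1846 in control replicate 1, 3834 and 4371 in control replicates 2 and 4 and 2021, 2404, 1896 and 2162 in POP125x pools (log2 fold change −0.57, SE 0.34, adjusted p = 0.343). Set 2 held the 3 highest pools of both genes.

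The transcription factors Crx, Nrl and Nr2e3 direct photoreceptor genes, and Nrl and Nr2e3 act in rods of mammals and zebrafish. *nr2e3* (ENSDARG00000045904) had 191, 220.0 and 217 normalized counts in control replicates 1, 2 and 4. It had 78.3, 280.3 and 126 in POP75x replicates 2, 3 and 4 and 90.4, 76.6, 90.7 and 112 in POP125x replicates 1 to 4. The POP125x pools were all below the lowest control, whereas the POP75x pools ranged from below most POP125x pools to above all controls. The means were 209 ± 15.9 (SD, n = 3) in control and 92.4 ± 14.5 (SD, n = 4) in POP125x pools, a log2 fold change of −1.18 (SE 0.34, adjusted p = 0.102). It was −0.92 within set 1, −1.04 without set 3 and −1.05 without set 2. The 3 pools of set 3 were the lowest of all, with POP75x replicate 2 (78.3) between POP125x replicates 2 and 1 (76.6 and 90.4). With the set as a term, *nr2e3* was not among the genes that passed.

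The other factors did not share this pattern. *crx* had 1908, 2659 and 3333 normalized counts in control and 2192, 2248, 1697 and 1492 in POP125x pools, which overlapped (log2 fold change −0.45, SE 0.24, adjusted p = 0.305). *nrl* had 31.5, 51.8 and 51.2 in control, 47.6, 27.7 and 30.3 in POP75x and 59.9, 83.9, 38.3 and 27.1 in POP125x pools, with the highest values in POP125x replicates 1 and 2. Its log2 fold change was 0.13 (SE 0.38, adjusted p = 0.857), and −0.43 without set 3.

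Of the 3 visual cycle and retinoid carrier genes, 1 lay below 0 between POP125x and control and 0 had groups without overlap. None passed in limma, edgeR or DESeq2, and 0 had an unadjusted p under 0.05 in limma. *rpe65a*, the isomerase of the retinal pigment epithelium, had 795, 529 and 415 normalized counts in control, 1392, 623 and 773 in POP75x and 1009.7, 957, 648 and 461 in POP125x pools. *rlbp1b*, a retinaldehyde-binding protein, had 172, 169 and 136 in control, 400.1, 215 and 154 in POP75x and 344, 299, 100.0 and 98.7 in POP125x pools. Both had their 3 highest values in set 3. Their log2 fold changes were 0.39 (SE 0.34, adjusted p = 0.513) and 0.18 (SE 0.47, adjusted p = 0.839), and without set 3 they were −0.032 and −0.66. The gene with the lowest p of this role was *rbp4l* (ENSDARG00000044684), named for its likeness to a retinol carrier, with 2382, 3552 and 3205 in control, 2149.8, 4953 and 2894 in POP75x and 1752, 2125, 2371 and 2721 in POP125x pools. Its groups overlapped and its log2 fold change was −0.44 (SE 0.27, adjusted p = 0.358).

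**Figure D3:**
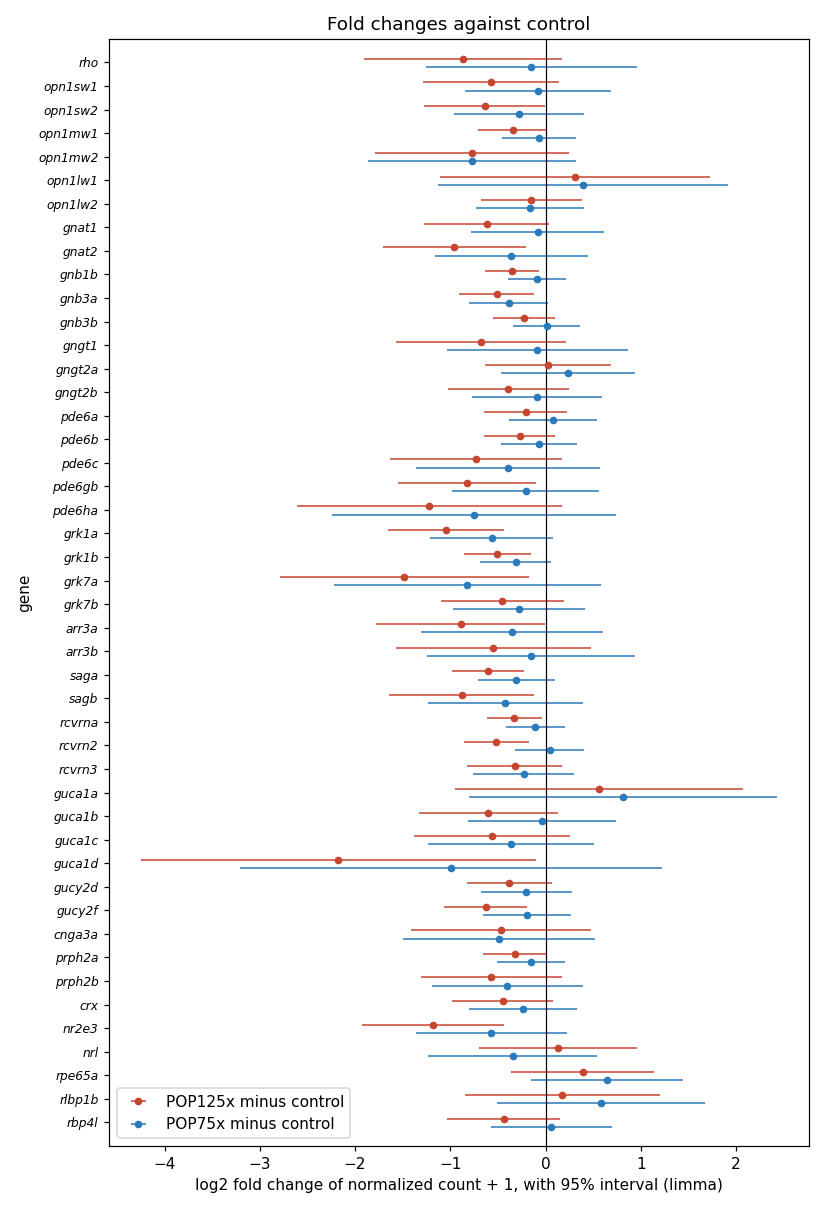
Log2 fold changes of the 46 genes (rows) in POP125x (red) and POP75x (blue) pools relative to control, with 95% intervals from the limma fit. In POP125x pools 40 points lie left of 0. The widest intervals belong to *guca1d*, *guca1a*, *opn1lw1* and *pde6ha*, whose pools differed by up to 47.2-fold, 7.83-fold, 8.01-fold and 7.66-fold.

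Between POP75x and control, 37 of the 46 genes lay below 0 (50.0% of all genes tested) with a median log2 fold change of −0.20, and the groups overlapped for every one of the 46 (all lower in 4.38% and all higher in 4.94% of all genes tested). None of the 46 passed in limma, where 0.0% of all genes passed, and 0 had an unadjusted p under 0.05 (2.13% of all genes tested with a lower and 3.78% with a higher level). edgeR and DESeq2 also called 0 of them, while over all 21563 genes tested edgeR called 0 and DESeq2 127 (17 lower). The largest log2 fold changes below 0 were those of *guca1d* (−0.99, SE 1.01), *grk7a* (−0.82, SE 0.64) and *opn1mw2* (−0.77, SE 0.50). Those above 0 included *guca1a* (0.81, SE 0.74), *rpe65a* (0.65, SE 0.37) and *rlbp1b* (0.58, SE 0.50). The 3 POP75x pools fall into 3 different sets, and POP75x replicate 3 held the highest value of all 10 pools for genes such as *rho*, *gnat2* and *nr2e3*. Without POP75x replicate 3 the median was −0.38, and without POP75x replicate 2 it was −0.076. With the set as a term 22 of the 46 lay below 0, the median turned to 0.017, and 1 gene (*cnga3a*) passed with a lower level, against 4.67% of all genes tested (1.11% lower). Here too the p-values of that fit are not valid as tests, since the sets came from the same values. Within set 1, 36 of the 46 lay below 0 in the POP75x pool relative to the 1 control pool, with a median of −0.11.

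Between POP125x and POP75x, 43 of the 46 lay below 0 (51.3% of all genes tested) with a median of −0.29. In 2 of them (4.35%), *gnb1b* and *rcvrn2*, all POP125x pools lay below all POP75x pools, which held for 2.75% of all genes tested, and in 0 all lay above (2.95%). An unadjusted p under 0.05 was reached by 1 gene with a lower level (*rcvrn2*, against 1.97% of all genes tested) and by 0 with a higher one (2.91%). Between the doses 0 passed in limma (0.0% of all genes), edgeR or DESeq2. Over all 21563 genes tested, edgeR called 0 between the doses and DESeq2 22, of which 2 were lower. Without POP75x replicate 3 the median was −0.16. Since the comparisons of both doses share the 3 control pools, their fold changes are not independent of each other, and the values of both are given side by side above without a test of their likeness.

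Many of the 46 genes had the pools of one set at an end of their order. The 3 pools of set 2 were the 3 highest for 25 of the 46, against 17.3% of all genes tested, and the 3 lowest for 0 (16.7%). The 3 pools of set 3 were the 3 lowest for 14 genes, against 9.89%, and the 3 highest for 4 (10.6%), which were *guca1a*, *opn1lw1*, *rlbp1b* and *rpe65a*. The genes lowest in set 3 were *arr3a*, *arr3b*, *gnat2*, *grk7a*, *grk7b*, *guca1c*, *guca1d*, *gucy2d*, *pde6c*, *pde6ha*, *rbp4l*, *rcvrn3*, *nr2e3* and *saga*. The median deviation of the 12 rod genes from their means was 0.55 to 0.63 on the log2 scale in set 2 and at most −0.047 in the other pools. The sets were defined without the 46 genes, but they are not groups of the study, and set 2 has no POP125x pool. Set 2 held the 3 highest pools also for 8 of 20 pan-neuronal, 9 of 27 inner retina and 6 of 16 progenitor genes. It did so for 8 of 50 further photoreceptor genes and 4 of 19 of the pigment epithelium and Mueller glia. For pineal, clock and lens genes the counts were 1 of 9, 2 of 38 and 0 of 28. These lists, described below, were among the genes that defined the sets, so their counts are a description only.

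**Figure D4:**
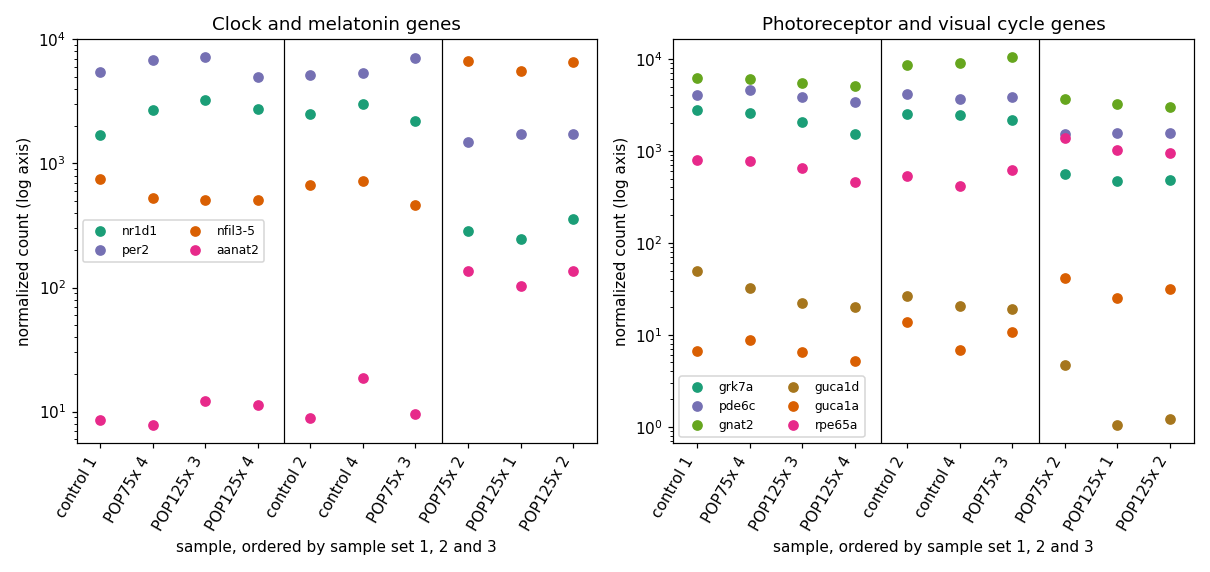
Normalized counts (log axis) of 4 clock and melatonin genes (left) and 6 of the 46 genes (right) in each pool, ordered by sample set, with lines between the sets. In set 3 *nr1d1* and *per2* are low and *nfil3-5* and *aanat2* high, and *grk7a*, *pde6c*, *gnat2* and *guca1d* are low while *guca1a* and *rpe65a* are high.

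Other gene lists chosen for the eye were set beside the 46. In RNA of whole larvae, levels of these lists cannot be assigned to the eye alone. The numbers of their genes at an unadjusted p under 0.05 in limma, in either direction, stand against 21.0% of all genes tested. Of 50 further tested genes of phototransduction and photoreceptor structure, 36 lay below 0 between POP125x and control (median −0.17), and limma called 0, with 9 at an unadjusted p under 0.05. The 16 genes of the ciliary marginal zone and of retinal progenitors all lay below 0 (median −0.30, 0 called, 3 at an unadjusted p under 0.05). Of the 27 inner retina genes, 21 lay below 0 (median −0.33, 13 at an unadjusted p under 0.05). The summed level of these lists did not overlap between POP125x and control. It was 19244 to 21295 against 21382 to 24678 normalized counts for the photoreceptor list, 7344 to 8465 against 9140.0 to 9944 for the progenitor list and 14607 to 16528 against 16727 to 18421 for the inner retina list. The range of POP75x pools was 20824 to 24011, 8375 to 9033 and 15967 to 17829.7 for these lists. The nearest POP125x and control pools lay close for the photoreceptor list (21295 and 21382) and the inner retina list (16528 and 16727). Highly counted genes weigh most in such sums, and no share over sums of other genes was taken to set beside them.

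A single inner retina gene (1 of 27) passed the threshold, with a higher level, against 1.35% of all genes tested. *cabp5a*, which encodes a calcium-binding protein of bipolar cells, had 51.5, 51.8 and 55.1 normalized counts in control, 95.1, 131 and 93.8 in POP75x and 96.7, 116, 107 and 87.3 in POP125x pools. All POP125x pools lay above all controls, which held for 12.4% of all genes tested, and so did all POP75x pools (4.94%). The log2 fold change between POP125x and control was 0.92 (SE 0.19, adjusted p = 0.0356), and the call was lost without any one of the 3 control or 4 POP125x pools (adjusted p 0.0571 to 0.169). Against control, POP75x had a log2 fold change of 0.98 (adjusted p = 0.289). Most of the list went the other way between POP125x and control, with 21 of the 27 genes below 0. Among those were *tfap2b* (−0.71, SE 0.16, adjusted p = 0.0524), *vsx1* (−0.80, SE 0.22, adjusted p = 0.0979) and the paralog *cabp5b* (−0.19, SE 0.37, adjusted p = 0.774).

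The lens list was lowest in set 2. Of 28 tested lens genes, most of which encode crystallins, 2 lay below 0 between POP125x and control (median 1.01), 0 passed in limma and 0 had an unadjusted p under 0.05. Their summed level was 47401, 13778 and 14714 normalized counts in control replicates 1, 2 and 4, 80609.7, 11197 and 41318 in POP75x replicates 2, 3 and 4 and 65385, 85682, 34519 and 21476 in POP125x replicates 1 to 4. The 3 pools of set 2, which were the highest for 25 of the 46 genes, were the lowest for 22 of the 28 lens genes (16.7% of all genes tested). The 3 of set 3 were the highest for 17 (10.6%). The lens genes were among the genes that defined the sets, so these counts are a description only. The part of this order of pools in the values of the photoreceptor genes was not tested.

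The remaining lists were of neurons in general, the pigment epithelium and Mueller glia, the pineal organ and the clock. Of 20 pan-neuronal genes, 11 lay below 0 between POP125x and control (median −0.12, 0 called, 4 at an unadjusted p under 0.05), and their summed levels overlapped (74664 to 86261 in POP125x and 75578 to 98181 in control pools). Of 19 further visual cycle genes of the pigment epithelium and Mueller glia, 13 lay below 0 (median −0.12, 0 called, 4 at an unadjusted p under 0.05), with sums of 4153 to 4586 in POP125x, 4273 to 5085 in POP75x and 4419.5 to 4776 in control pools. Of 9 pineal genes, 6 lay below 0 (median −0.28, 0 called, 1 at an unadjusted p under 0.05). The median of the 38 clock genes was −0.13, with 0 called and 5 at an unadjusted p under 0.05.

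**Figure D5:**
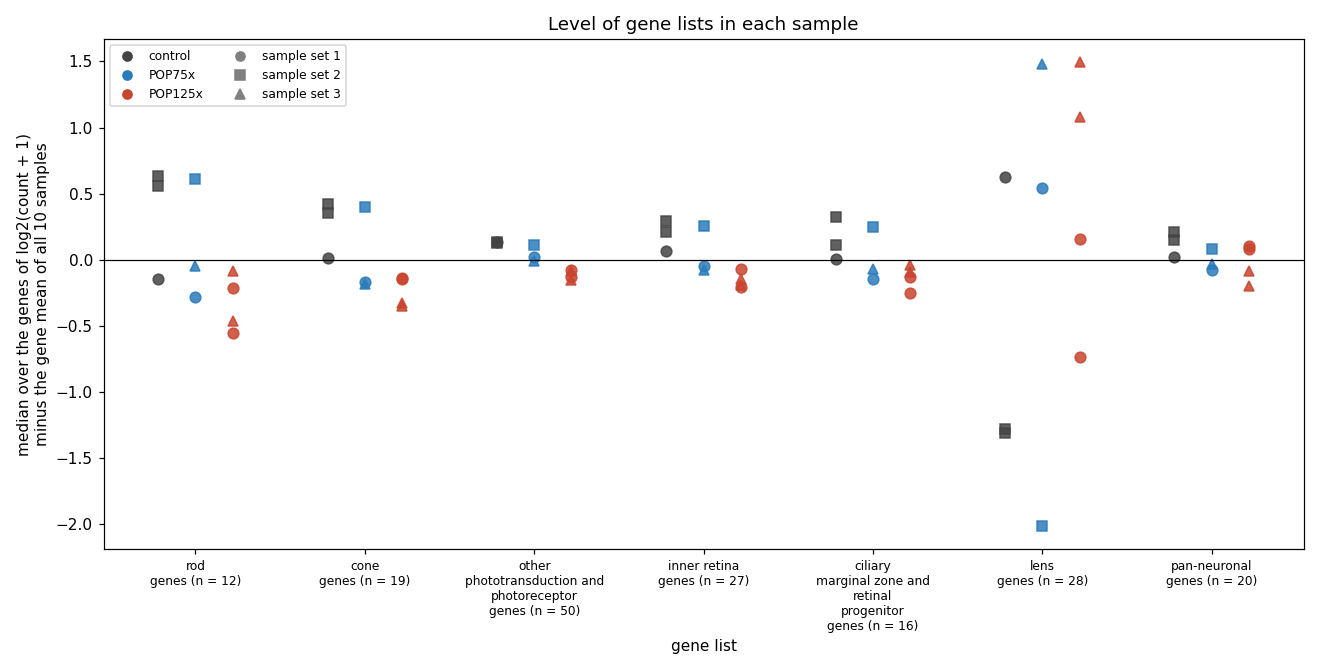
Median over the genes of each list of log2(normalized count + 1) minus the gene's mean over all pools (y axis), for each pool (points, with color giving the group and shape the sample set). Rod and cone genes are highest in the 3 pools of set 2 (squares) and lens genes are lowest there. The other phototransduction and photoreceptor genes (−0.153 to 0.136) and the pan-neuronal genes (−0.201 to 0.210) spread less.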

How the data were processed

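The authors sequenced stranded mRNA libraries of 10 pools from one end and, by the methods, mapped and counted the reads with the nf-core rnaseq pipeline on GRCz11 with Ensembl annotation. The deposited table holds a signal per gene and sample, which is a read count after division by the size factor of its sample, and DESeq2 and GRCz11 are named in the submitters' processing notes. All values (100%) were whole multiples of the smallest value of their sample, within 0.001, so that whole reads could be recovered, 13659239 to 20267255 per sample on genes. Pools of one group differed by more than the sampling noise of the reads, so all were kept. The authors' tables of each dose against control (normalized means, fold changes and p-values) were not used.

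The main fit used limma 3.58.1 (R 4.3.3) on log2(value + 1) for the genes that reached 10 normalized counts in 3 or more samples. It had an intensity trend, all 10 samples and the group as its only term. Benjamini-Hochberg adjustment of the two-sided p-values ran over all 21563 genes tested, with a threshold of 0.05. Alternatives were TMM and total counts as scaling, other pseudocounts, no filter, edgeR 4.0.16 and DESeq2 1.42.0 on recovered reads, the replicate number as a block, the sample set as a term, only the compared groups and each pool left out in turn. The limma fit, but not edgeR or DESeq2, was tried on simulated counts. These had a single dispersion for all genes and no sample sets, unlike the pools described here.

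Sample sets came from average-linkage clustering on Euclidean distances of the log2 values, with the number of sets fixed at 3. The 46 genes, the other gene lists, the sets and the tests were chosen with earlier results of these data known. Genes with full values are the opsins, any gene past the threshold (none) and the gene with the lowest unadjusted p of each role between POP125x and control. A planned scan of promoters and proteins was not run, since no sequence was at hand. matplotlib 3.10.9 under Python 3.11.15 drew the plots.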

Additional observations from a re-analysis of the deposited data

Results flagged for a closer look

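In the group of 4 POP125x pools, the blue cone opsin *opn1sw2* had 2784, 2741, 2769.6 and 3034 normalized counts in replicates 1 to 4. Replicate 4 stood apart from the others, its gap to the nearest pool being 0.853 of the range of the group, above the 95% critical value of Dixon's test for 4 samples. All 46 genes were looked at in this way, and chance alone would set apart about 1 in 20 groups. POP125x replicate 4 remained below 2 of the 3 controls.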

How the results depend on the processing

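The 46 genes kept a median log2 fold change below 0 between POP125x and control in every fit tried, and the count of them past the adjusted p of 0.05 was 0 with TMM scaling, total counts as scaling, a pseudocount of 0.5 or 5, no filter, edgeR and limma without the trend. It was 6 with DESeq2, 5 with only the compared groups in the fit and 4 when the set was a term, and 0 to 4 over the fits that each left out 1 pool (1 each without control replicate 1 or POP75x replicate 2, and 4 without POP75x replicate 3). The median was −0.17 when the set was a term and −0.20 without set 2. Between POP75x and control 1 of the 46 (*cnga3a*) passed when the set was a term, 22 lay below 0 in place of 37, and the median was 0.017 in place of −0.20.

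Over all genes tested, the count for POP125x against control (366) was 1609 with DESeq2, 1534 with only the compared groups, 2707 with the set as a term, 188 with total counts, 18 without set 2 and 120 without set 3, and 38 to 1651 with 1 pool left out: 40 and 38 without control replicates 2 and 4, 228, 56, 40 and 44 without POP125x replicates 1, 2, 3 and 4, 686 without POP75x replicate 2 and 1651 without POP75x replicate 3. For POP75x against control (0) it was 127 with DESeq2, 1008 with the set as a term, 1 without set 3 and 0 to 5 with 1 pool left out (1 without POP125x replicate 1, 5 without POP75x replicate 3). For POP125x against POP75x (0) it was 22 with DESeq2, 1 with no filter, 1 without the trend, 61 with the set as a term and 0 to 2 with 1 pool left out (2 without POP125x replicate 1). Fits without 1 POP75x pool, or with only the compared groups, keep the same fold changes between POP125x and control (median of the 46 −0.52). For that comparison they differ from the main fit only in the pools that enter the estimate of the spread. The cause of the other differences was not tested.

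Direction changed for single genes between POP125x and control, none of which was past the threshold in the fit of all pools. With the set as a term the log2 fold change was 0.058 for *rho*, 0.18 for *opn1sw1*, 0.0079 for *opn1sw2*, −0.66 for *opn1lw1*, 0.083 for *opn1lw2*, 0.15 for *gngt1*, −0.0099 for *gngt2a*, 0.31 for *gngt2b*, 0.40 for *pde6ha*, 0.063 for *grk7b*, −0.25 for *guca1a*, 0.033 for *guca1c*, 0.050 for *gucy2d*, 0.14 for *prph2b*, −0.13 for *nrl*, −0.37 for *rpe65a*, −0.45 for *rlbp1b* and 0.20 for *rbp4l*. Without set 2 it was 0.10 for *rho*, 0.012 for *opn1sw1*, 0.24 for *opn1mw2*, 0.32 for *opn1lw2*, 0.049 for *gngt1*, 0.038 for *pde6ha*, 0.19 for *prph2b* and −0.12 for *rpe65a*. Without set 3 it was −0.62 for *opn1lw1*, −0.26 for *gngt2a*, 0.027 for *arr3b*, −0.49 for *guca1a*, 0.066 for *guca1c*, −0.43 for *nrl*, −0.032 for *rpe65a* and −0.66 for *rlbp1b*. Over the fits that each left out 1 pool it ranged from −0.066 to 0.75 for *opn1lw1*, from −0.39 to 0.011 for *opn1lw2*, from −0.071 to 0.16 for *gngt2a*, from −0.72 to 0.016 for *cnga3a*, from −0.14 to 0.39 for *nrl* and from −0.14 to 0.46 for *rlbp1b*. The fits without set 2 or set 3 and without the trend were chosen after seeing the data. In the fit without set 2 the lone control pool is assumed to vary like the other groups. The sets were derived from these data, so p-values and counts of genes passed in the fit with the set as a term are not valid as tests.

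Expression showed no consistent pairing of pools by replicate number: over 8 pairs with the same number the deviations from the group means correlated at −0.41 to 0.49, 4 pairs were over 0.1, and 1 of 10 pools correlated best with a pool of its own number. Differences between the sets enter these deviations, so they cannot tell whether pools with the same number came from one experiment. With the replicate block, 4 of the 46 genes (*gnat2*, *grk1a*, *grk7a* and *nr2e3*) and 1164 of all genes passed between POP125x and control. Depth limits genes such as *guca1d*, which had 1 read in POP125x replicates 1 and 2.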
